A study of Mus musculus with 13 samples.

Results

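GR and NCOR1 binding was described around 10 genes of hepatic lipid synthesis: Acaca, Acacb, Fasn, Scd1, Elovl6, Me1, Acly, Thrsp, Pnpla3 and Dgat2. A peak belonged to one of them when that gene had the protein-coding gene body nearest to the centre of the peak within 100 kb, out of 21896 protein-coding genes. The glucocorticoid receptor (GR) lists held 49 such peaks in control liver under vehicle and 66 under dexamethasone, and 35 and 47 in dKO liver. The NCOR1 lists held 74 and 72 in control liver under vehicle and dexamethasone, and 16 in dKO liver under vehicle. Peaks that overlapped across the 7 lists merged into 115 sites, out of 79141 sites in all.

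ChIP-seq measured where each protein lay on DNA in livers of male mice. Control animals (genotype label GFP) and NCOR1/2 dKO animals (label CRE), a knockout of both nuclear receptor corepressors, received vehicle or dexamethasone at 1 mg/kg by intraperitoneal injection at zeitgeber time 8, and tissue was collected at zeitgeber time 10, 2 h after the injection. The promoter and the route by which Cre or GFP reached the liver, and the age of the mice, are not given in the sources used here. GR was profiled in all 4 combinations of genotype and treatment with 2 libraries each, and NCOR1 with 1 library for vehicle-treated and 2 for dexamethasone-treated controls and 1 for vehicle-treated dKO mice, beside 1 input library.

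De novo lipogenesis turns citrate into fatty acids and stores them as triglyceride in the hepatocyte. Citrate is split to acetyl-CoA, carboxylated to malonyl-CoA, built into palmitate with NADPH, then elongated, desaturated and esterified. Insulin drives these genes through SREBP-1c, carbohydrate through ChREBP, oxysterols through LXR and thyroid hormone through its receptor, which recruits NCOR1 when no hormone is bound. GR is the receptor of cortisol, corticosterone and dexamethasone, and NCOR1 is a scaffold that carries the histone deacetylase HDAC3 to nuclear receptors.

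Each list pooled the libraries of its group, which leaves no measure of the variation from animal to animal, and a peak is not a biological replicate. The lists rested on 17.5 to 36.9 M (mega) tags, and peaks held 3.4% to 7.23% of tags for GR and 2.07% to 8.52% for NCOR1. Levels are normalized tag counts, in tags per 10 M tags, and the GR and NCOR1 scales are not comparable with each other. A site with no peak in a list was not called there, and this is no evidence of absence. Intervals on tag counts are 95% intervals for counting error only. Those on shares are 95% binomial intervals that treat peaks as independent, which peaks of the same gene need not be. They do not serve as a test against the share of the whole list.

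Of the 10 genes, 8 had a promoter window in the RefSeq table (GRCm38.p6), Me1 with 2 windows, and Scd1 and Dgat2 had none. NCOR1 was called over the windows of Fasn, Elovl6, Me1 and Acly in control vehicle liver, and over 22.6% of all 21262 windows. No GR peak of any list touched any of the 9 windows. Over all windows GR was called in only 6.27% to 10.4% across its 4 lists, so 0 of 9 is close to that share. The table's windows follow RefSeq transcript starts, which need not be the outer start of the gene body: that of Fasn lies 0.619 kb inside the body, the second of Me1 8.64 kb, that of Acacb 19.2 kb and that of Acaca 65.8 kb. The 4 windows with NCOR1 are printed because the corepressor lay on them, and that of Thrsp because GR lay just upstream of it. Each line gives the 250 bases before a RefSeq transcript start, 5′ to 3′, and capitals mark CCAAT, the motif of the factor NF-Y, on either strand.
Fasn promoter (chr11:120824548-120824797, minus strand): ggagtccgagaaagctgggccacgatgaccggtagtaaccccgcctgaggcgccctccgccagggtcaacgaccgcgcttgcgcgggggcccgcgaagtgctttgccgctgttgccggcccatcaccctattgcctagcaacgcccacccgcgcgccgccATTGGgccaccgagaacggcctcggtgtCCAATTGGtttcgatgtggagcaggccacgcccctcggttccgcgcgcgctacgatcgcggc
Elovl6 promoter (chr3:129532136-129532385, plus strand): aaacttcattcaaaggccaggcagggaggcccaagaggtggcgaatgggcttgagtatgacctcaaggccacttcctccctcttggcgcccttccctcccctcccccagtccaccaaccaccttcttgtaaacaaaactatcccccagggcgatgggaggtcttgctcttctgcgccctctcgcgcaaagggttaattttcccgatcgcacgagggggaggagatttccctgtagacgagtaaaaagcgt
Me1 promoter (chr9:86695915-86696164, minus strand): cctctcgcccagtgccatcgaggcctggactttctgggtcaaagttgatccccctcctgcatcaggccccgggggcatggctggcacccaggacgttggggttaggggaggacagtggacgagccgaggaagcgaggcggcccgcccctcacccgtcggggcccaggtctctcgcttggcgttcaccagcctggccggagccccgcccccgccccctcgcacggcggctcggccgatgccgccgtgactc
Acly promoter (chr11:100528001-100528250, minus strand): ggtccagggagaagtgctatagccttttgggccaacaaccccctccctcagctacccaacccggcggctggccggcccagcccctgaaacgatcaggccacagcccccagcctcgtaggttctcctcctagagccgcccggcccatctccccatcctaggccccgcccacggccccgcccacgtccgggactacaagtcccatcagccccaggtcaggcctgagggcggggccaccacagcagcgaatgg
Thrsp promoter (chr7:97417551-97417800, minus strand): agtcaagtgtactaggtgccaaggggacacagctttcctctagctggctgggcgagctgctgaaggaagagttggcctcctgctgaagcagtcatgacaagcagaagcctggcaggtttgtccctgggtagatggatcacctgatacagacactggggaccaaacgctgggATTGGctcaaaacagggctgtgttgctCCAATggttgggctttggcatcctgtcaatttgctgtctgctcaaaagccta

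CCAAT occurred in 5 of the 9 windows, against 35.4% of 21262 protein-coding windows. Fasn held 3 matches, of which 2 overlap in a stretch that reads the same on both strands, and Thrsp held 2, while the printed windows of Elovl6, Me1 and Acly held none. The palindromic glucocorticoid response element (AGAACA, 3 bases, TGTTCT) with up to 2 mismatches was in 0 of the 9 windows and in 1.35% of all. Its single arm AGAACA, which is part of that longer motif, was in 1 window, that of Acaca, and in 13.7% of all. The sterol response element TCACNCCAC (1.01% of all windows), the E-box CACGTG (6.63%) and the LXR-type repeat (AGGTCA given again after 4 bases) with up to 2 mismatches (2.27%) were in 0 of the 9. Both strands were searched, and a missing match says only that these letters are not in this window.

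Over these windows the peaks were NCOR1 peaks. At Fasn, which encodes fatty acid synthase, the NCOR1-antibody count over the promoter was 44.4 and 36.0 in control liver under vehicle and dexamethasone and 20.9 in dKO liver under vehicle. The Elovl6 promoter held 53.2 and 23.2 under vehicle and dexamethasone in control liver, the first Me1 window held 19.7 and 10.6, and the Acly window held 17.2 under vehicle with no dexamethasone peak. Counts were thus lower under dexamethasone at the 3 promoters called in both control lists, and Fasn was the one promoter of the 4 that also had a peak in dKO liver. Over all windows NCOR1 was called in 22.6% and 18.9% in control liver under vehicle and dexamethasone and in 15.2% in dKO liver, and GR in 6.27% to 10.4% across its 4 lists.

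Before the start of the gene body itself, GR was called at Acaca and Acacb in all 4 lists. Among the 8 genes with a known strand these 2 had a GR peak over the 250 bases before that start, against 5.17% to 8.94% of 17491 genes across the 4 lists. The peak at the start of Acaca (chr11:84129452-84129671) held 16.0 under vehicle and 12.3 under dexamethasone in control liver and 22.8 and 10.5 in dKO liver, lower under the drug in both genotypes. Its centre lies in the neighbouring gene Tada2a, so it is not among the peaks counted for Acaca. The peak at the start of Acacb is described with that gene. NCOR1 was called over these bases at Elovl6, Acacb, Me1 and Acly in control vehicle, at Elovl6, Acacb, Me1 and Acaca in control dexamethasone, and at none of the 8 in dKO liver, against 20.5%, 16.9% and 13.6% of all. This way of placing the window was chosen after the data were seen.

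Binding was spread unevenly over the pathway. Elovl6, which extends palmitate to stearate, held 30 of the 115 sites, Dgat2 held 16, Acaca 13, Acacb and Me1 11 each, Scd1 and Acly 10 each, Fasn and Thrsp 5 each and Pnpla3 4. Inside a gene body lay 74 of the 115 sites. By list, 56.25% to 65.3% of the lipogenic peaks lay inside a gene body, against 55.0% to 56.8% of all peaks. GR was called in at least 1 list at 77 sites and NCOR1 in a control list at 92, and 58 sites had both. These classes were not counted over all sites. The share of GR peaks with NCOR1 is set against the whole lists further below. All 10 genes had GR and control NCOR1 sites, and Fasn was the one gene without a site that had both. The members' peaks were stronger than their lists: the median GR count was 16.9 against 13.3 for the whole control vehicle list and 18.3 against 12 for control dexamethasone, and the median NCOR1 count in control vehicle was 25.3 against 15.5.

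Of the 115 sites, 6 at 4 genes were called in all 7 lists (5.22%, against 2.48% of all sites) and 26 in all 4 GR lists (22.6%, against 20.6%). GR was called in both dexamethasone lists and neither vehicle list at 5 sites, in both vehicle lists and neither dexamethasone list at 3, and in both control lists and neither dKO list at 4. These are 4.35%, 2.61% and 3.48% of the 115 sites, against 5.39%, 1.24% and 4.55% of all. A further 10 sites (8.70%, against 3.91%) had GR in every list but dKO vehicle, and 16 (13.9%, against 12.7%) had control dexamethasone as their one GR list. The NCOR1 antibody in dKO liver held 4 sites that no other list held (3.48%, against 7.47%). The Scd1 site among them adjoined a site with control NCOR1 and was separate only because the peaks did not overlap.

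**Figure D1:**
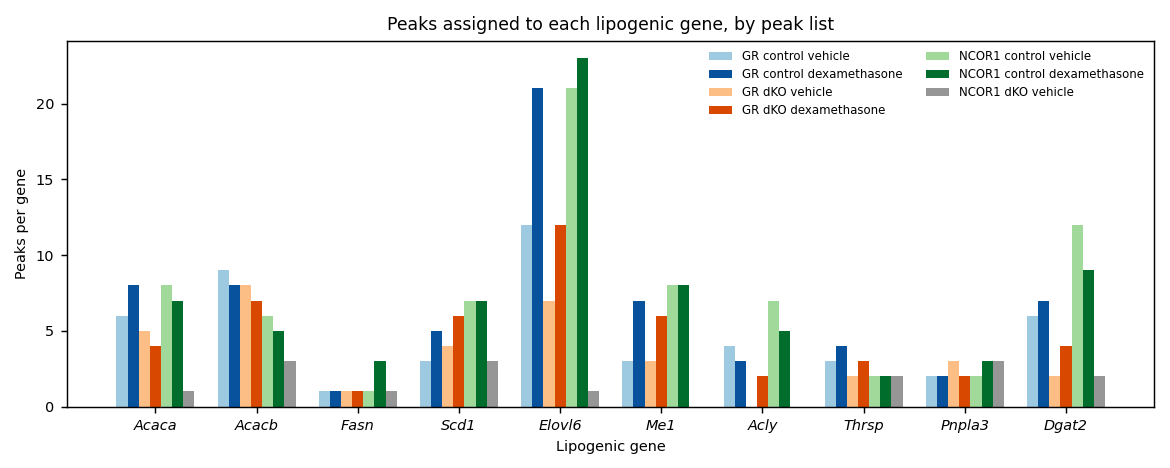
Number of peaks (y axis) assigned to each of the 10 lipogenic genes (x axis) in each of the 7 peak lists (bar colours). Elovl6 held the most in the control lists, with 12 and 21 GR peaks and 21 and 23 NCOR1 peaks under vehicle and dexamethasone, and the grey dKO NCOR1 bars did not exceed 3 at any gene.

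**Figure D2:**
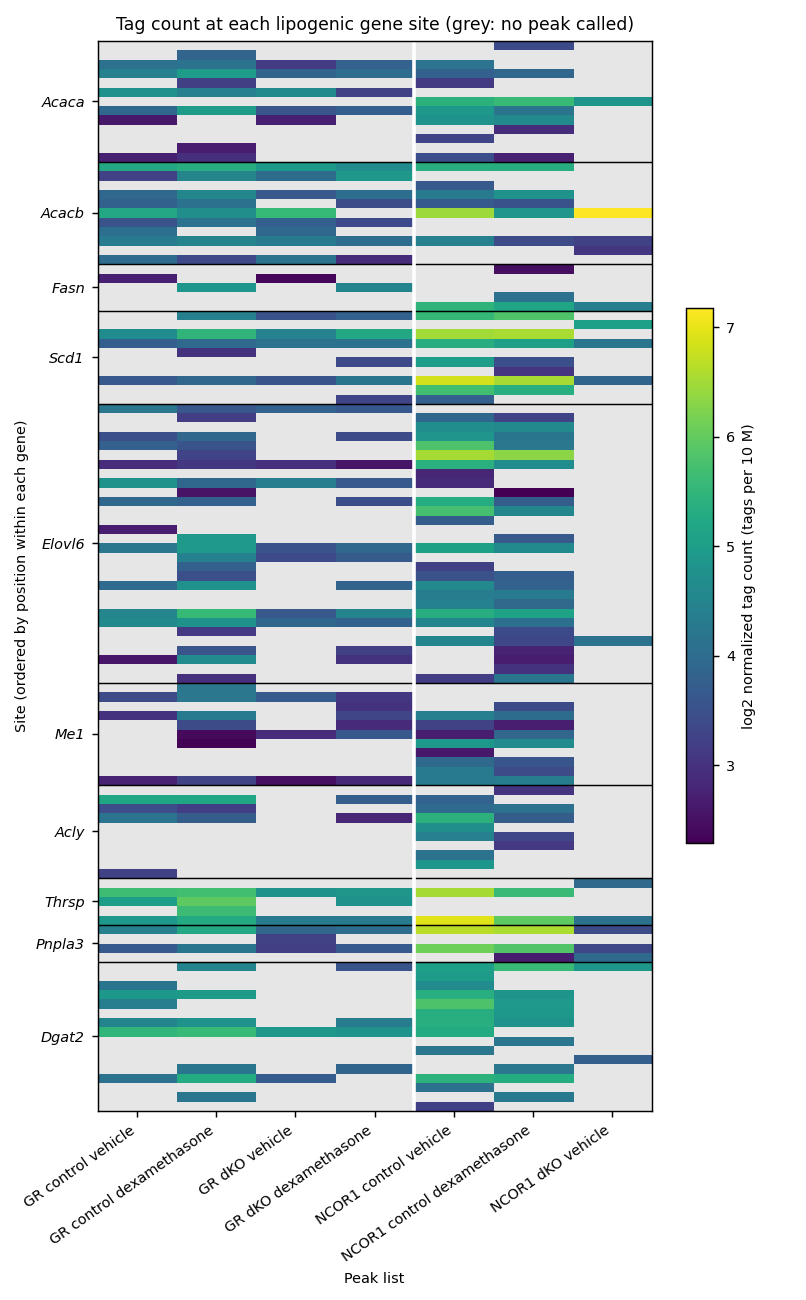
Normalized tag count on a log2 scale (colour) at each of the 115 sites (rows, ordered by position within each gene) in the 7 lists (columns); grey marks a site with no peak called. The NCOR1 dKO column is grey at all but 16 sites, and 26 sites were called in all 4 GR lists.

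Citrate is split by ATP citrate lyase, encoded by Acly. The strongest GR site of Acly, inside the gene (chr11:100490982-100491204), held 36.2 tags per 10 M in control vehicle and 35.8 in control dexamethasone, had no peak in dKO vehicle, and held 13.6 in dKO dexamethasone. Control values were thus alike with and without the drug, and the dKO dexamethasone value was 2.63-fold lower than its control, with non-overlapping intervals of 29.5 to 43.4 and 9.75 to 18.1. No Acly site was called for GR in dKO vehicle liver, against 4 in control vehicle, and Acly was the one gene of the 10 with no GR peak there. Acly also carried the sharpest NCOR1 contrast between the drug groups: a site inside the gene (chr11:100515110-100515365) had 42.8 in control vehicle and 13.3 in control dexamethasone, 3.22-fold lower, and the GR counts at that same site were 17.7, 13.2, none and 7.05.

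Malonyl-CoA is made by the acetyl-CoA carboxylases, ACC1 (Acaca), which feeds fatty acid synthesis, and ACC2 (Acacb), whose product restrains entry of fatty acids into mitochondria. Inside Acaca, the site with the highest GR count (chr11:84197990-84198311) held 15.3 under vehicle and 31.5 under dexamethasone in control liver, and 11.9 and 13.5 in dKO liver. Dexamethasone was 2.06-fold over vehicle in control and 1.13-fold in dKO liver, so the control dexamethasone value stood alone above the other 3. Another intragenic Acaca site (chr11:84179134-84179395) went the other way, with 27.1, 21.3, 24.4 and 9.4 in the same order, a 2.60-fold lower count under dexamethasone in dKO liver. The strongest control NCOR1 site of Acaca lay beside it (chr11:84179551-84179781), with 42.8 under vehicle, 48.5 under dexamethasone and 28.3 in dKO vehicle, and had no GR peak in any list.

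Just outside the lower-coordinate end of the Acacb gene body GR was present in all 4 lists (chr5:114146058-114146301), with 37.5 under vehicle and 40.5 under dexamethasone in control liver and 30.5 and 25.5 in dKO liver, beside NCOR1 at 41.4 and 40.1 in the control lists. These counts differed little between treatments. A site 5.81 kb into the gene (chr5:114152005-114152233) had no NCOR1 peak and held 9.46, 22.8, 16.2 and 29.9, so dexamethasone was 2.41-fold over vehicle in control and 1.85-fold in dKO liver. Both dKO counts there exceeded the control counts of the same treatment.

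A further Acacb site (chr5:114172984-114173194) carried more NCOR1-antibody signal in the knockout than in control liver. Its NCOR1 counts were 88.6 under vehicle and 28.7 under dexamethasone in control liver and 144.6 under vehicle in dKO liver, the highest count of any lipogenic gene peak in any list. Its GR counts were 37.9 and 26.0 in the same control groups and 47.5 in vehicle-treated dKO liver, with no peak in dKO dexamethasone. For both antibodies the vehicle counts were above the dexamethasone count, and for both the dKO vehicle count was above the control vehicle count. It was the one of 11 matched lipogenic NCOR1 sites with a dKO count above control.

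Fasn and Me1, which encodes the NADPH-producing malic enzyme, had few or low GR peaks. Fasn had 1 GR peak in each list, and no Me1 GR count exceeded 20.0. The single dexamethasone-list GR site of Fasn lay inside the gene (chr11:120821854-120822075), with 29.0 in control and 22.4 in dKO liver and no peak in either vehicle list. It had no NCOR1 peak, and the vehicle lists held no GR peak within 8870 bp of it in control and 8909 bp in dKO liver. The one vehicle GR site of Fasn lay elsewhere inside the gene (chr11:120812831-120813066), at 6.55 in control and 5.14 in dKO liver, and had no peak under dexamethasone. GR at Fasn was therefore called at one place under vehicle and at another under dexamethasone, in both genotypes. The vehicle peaks were near the lowest counts of their lists, 4.55 and 4.17. Their folds over the local 10 kb were 4.64 and 4.25, near the limit of 4. Their absence under dexamethasone thus does not show that GR left the site. The strongest GR site of Me1 (chr9:86643557-86643785) held 8.01 under vehicle and 20.0 under dexamethasone in control liver, and 9.87 under dexamethasone in dKO liver with no dKO vehicle peak. The strongest Me1 site for NCOR1 (chr9:86680522-86680742) held 29.8 and 25.1 in the control lists, and no Me1 site was called with the NCOR1 antibody in dKO liver.

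Elongation and desaturation are carried out by ELOVL6 and by the stearoyl-CoA desaturase SCD1. Within Elovl6 the strongest GR site (chr3:129591794-129592029) held 22.8 under vehicle and 47.0 under dexamethasone in control liver, and 12.5 and 22.6 in dKO liver. The count was higher under dexamethasone in both genotypes, 2.06-fold and 1.81-fold, and each control count was above the dKO count of the same treatment. A site near the far end of the gene (chr3:129629292-129629537) had the highest fold over vehicle of all matched lipogenic GR sites in control liver, from 6.01 to 25, which is 4.16-fold, and held 7.99 in dKO dexamethasone with no dKO vehicle peak. Lowest was a site 27.2 kb outside the gene (chr3:129505044-129505270), at 27.8, 15.3, 20.7 and 12.5, with vehicle above dexamethasone in both genotypes.

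NCOR1 was strongest at Elovl6 far from the gene, 60.9 kb outside it (chr3:129471394-129471619), at 91.4 in control vehicle and 80.2 in control dexamethasone. GR was called there in control dexamethasone alone, at 9.66. Of the 30 Elovl6 sites, 14 lay outside the gene body, out to 98.1 kb, so the assignment to Elovl6 rests on distance for these. No peak of any list had one of the 10 genes as its nearest just beyond 100 kb.

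The strongest GR site of Scd1 lay 5.39 kb outside the gene (chr19:44388834-44389158) and held 25.3 under vehicle and 45.1 under dexamethasone in control liver, and 22.0 and 37.9 in dKO liver. The drug's fold was 1.78 in control and 1.72 in dKO liver, and the genotypes' intervals overlapped under each treatment. NCOR1 at the same place was 90.3 and 94.1 in the control lists. In dKO liver the NCOR1-antibody peak there was 203 bp away from the control vehicle peak, start to start, at 32.9, and counted as a separate site. On the other side of the gene a further site (chr19:44416251-44416616) had the highest NCOR1 count of Scd1, at 114.2 and 92.4 in control and 14.6 in dKO liver, with weak GR of 12.6, 15, 11.7 and 18.2.

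Thrsp encodes the lipogenic protein S14 (Spot 14), a classic thyroid hormone-responsive gene, and had the highest GR count of the 10 genes in control liver. All its GR sites lay upstream of the gene start, within 6.34 kb. The site 3.0 kb upstream (chr7:97420451-97420662) held 32.0 under vehicle and 62.4 under dexamethasone in control liver, and 27.3 under dexamethasone in dKO liver with no dKO vehicle peak, and had no NCOR1 peak. The intervals of control vehicle (25.7 to 39.5) and control dexamethasone (53.7 to 71.9) did not overlap. The site 1.34 kb upstream (chr7:97418792-97419012) held 50.8, 51.5, 27.9 and 29.5, so that it followed genotype and not the drug.

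A site 4.37 kb upstream of Thrsp (chr7:97421817-97422017) was called for GR in control dexamethasone alone, at 50.0, the strongest lipogenic peak of that list with no vehicle counterpart. Its fold over the surrounding 10 kb was 5.3 and those of the site 3.0 kb upstream were 4.61 to 6.51, near the limit of 4 the peak caller required. Farthest upstream, at 6.34 kb (chr7:97423792-97424054), GR was 29.7, 38.5, 19.7 and 19.4, and NCOR1 was 122.1 and 62.8 in control liver under vehicle and dexamethasone, against 17.2 in dKO liver. NCOR1 at the site 1.34 kb upstream was likewise 91.7 and 47.8 in the control lists. Both NCOR1 sites of Thrsp thus had lower counts under dexamethasone, 1.94-fold and 1.92-fold.

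**Figure D3:**
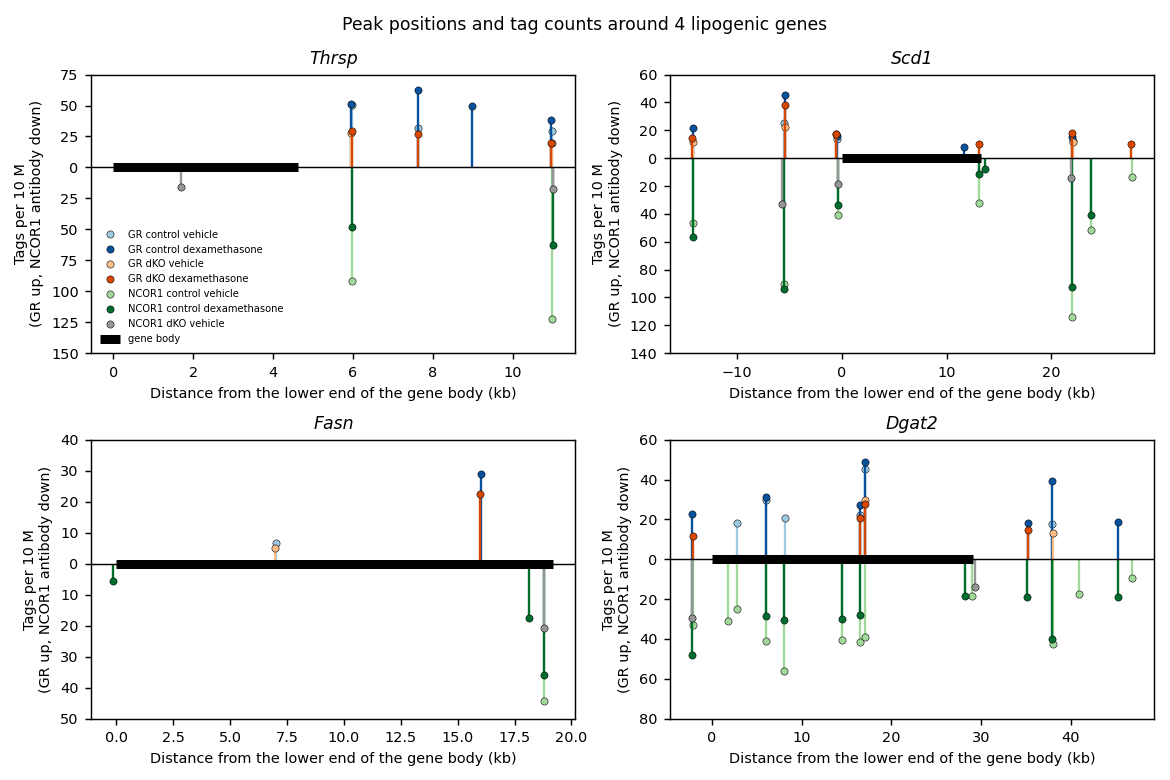
Tag counts (y axis, tags per 10 M, GR upwards and NCOR1 antibody downwards) of every peak against distance from the lower-coordinate end of the gene body (x axis, kb) for Thrsp, Scd1, Fasn and Dgat2; the black bar is the gene body and colours mark the 7 lists. At Thrsp all 4 GR sites stand above the upper end of the gene, which is its start, and at Fasn no GR stem shares a position with an NCOR1 stem.

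Triglyceride is completed by DGAT2, the diacylglycerol acyltransferase, while PNPLA3 is a lipid droplet protein induced by feeding. The strongest GR site of Dgat2 lay inside the gene (chr7:99170629-99170846), at 45.3 under vehicle and 48.8 under dexamethasone in control liver and 29.7 and 27.9 in dKO liver, and so separated the genotypes and not the treatments. Its NCOR1 count was 39.1 in control vehicle with the nearest control dexamethasone peak 536 bp away. A site outside the gene (chr7:99191498-99191755) separated the drug groups of control liver, at 17.5 and 39.1, with 13 in dKO vehicle and no peak in dKO dexamethasone, while NCOR1 was level at 42.8 and 40.0. Another intragenic site (chr7:99159591-99159827) held 29.7 and 31.1 in the control GR lists and had no GR peak in either dKO list. The strongest Dgat2 site for NCOR1 (chr7:99161625-99161922) held 56.0 and 30.3, and GR was called there in control vehicle alone, at 20.7.

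At Pnpla3 both main sites were called in all 7 lists. The site 11.4 kb outside the gene (chr15:84156093-84156502) had GR at 21.3 under vehicle and 37.8 under dexamethasone in control liver, and at 14.9 and 16.6 in dKO liver. NCOR1 there was 101.6 and 94.7 in control liver and 10.6 in dKO liver, the largest ratio of control to dKO among the matched lipogenic sites, at 9.59-fold. The site inside the gene (chr15:84168432-84168821) was likewise higher under dexamethasone in both genotypes, at lower GR levels of 12.7, 18.1, 9.31 and 12.7, with NCOR1 at 68.4, 57.3 and 10.0.

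Across the control lists, GR counts at the lipogenic genes were mostly higher under dexamethasone. Of 41 sites matched in both lists, 31 were higher (75.6%, against 53.3% of all 24576 matched sites). The median log2 ratio was 0.30, against 0.07 over all matched sites. At least 1.5-fold higher were 14 (34.1%), against 25.1% of all, and at least 1.5-fold lower were 3 (7.32%), against 15.9%. Acly was the exception, with 0 of 3 sites higher and a median of -0.25, while Me1 had the highest gene median, 0.81 over 3 sites. Peaks without a vehicle counterpart were 25 of 66 (37.9%, 26.2 to 50.7), close to the 39.8% of the whole list, and 11 of the 25 lay at Elovl6. Acacb, Acly and Pnpla3 had none. Vehicle peaks without a dexamethasone counterpart were 8 of 49 (16.3%), against 18.1% of all.

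In dKO liver 16 of 29 matched sites were higher under dexamethasone (55.2%, against 45.9% of all 18330 sites). The median log2 ratio at the lipogenic sites was 0.16, against -0.11 over all. That median was 0.08 when peaks had to overlap by 100 bp and turned to -0.11 with peaks of at least 8-fold over input. Relative to the median of all matched sites it was 0.26 in dKO and 0.23 in control liver. At least 1.5-fold higher were 6 (20.7%, against 19.5% of all) and lower 4 (13.8%, against 31.4%). Peaks without a dKO vehicle counterpart were 18 of 47 (38.3%, 24.5 to 53.6), against 35.4% of the list, and the reverse was 6 of 35 (17.1%) against 21.5%. By gene, the dKO median was 0.47 over 4 sites at Scd1 and -0.27 over 6 at Acacb. Among 25 sites called in all 4 GR lists whose peaks overlapped within each genotype (1 further site was joined across lists only by merging), 13 were higher under dexamethasone in both genotypes, 4 lower in both, 8 higher in control and lower in dKO, and 0 the reverse. These are 52%, 16%, 32% and 0%, against 37.6%, 49.0%, 7.39% and 5.45% over all 16158 such sites. The directions are signs alone, with no fold required. Opposite changes that both passed 1.5-fold were at 1 of the 25 sites (4.0%, against 0.0743% of all). The median log2 ratio at the 25 sites was 0.37 in control and 0.08 in dKO liver, whereas over all 16158 sites it was -0.12 and -0.22. With pooled lists the difference between genotypes in the response to the drug could not be tested.

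**Figure D4:**
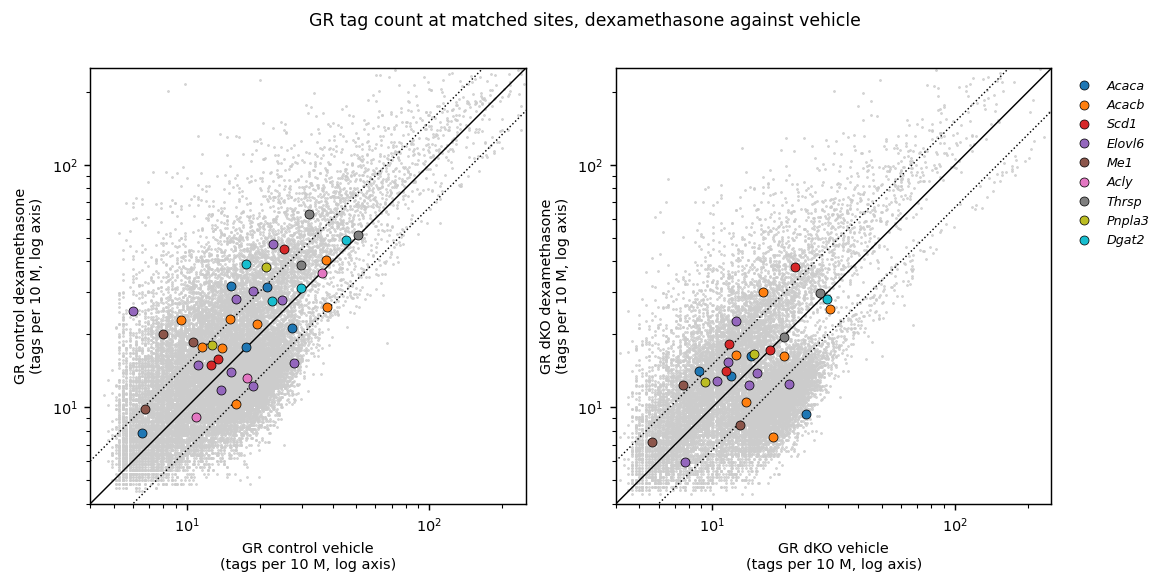
GR tag count (tags per 10 M, log axes) under dexamethasone (y axis) against vehicle (x axis) at sites matched in both lists, in control (left) and dKO liver (right); grey points are all sites, coloured points the lipogenic genes, the solid line marks equality and the dotted lines 1.5-fold. In control liver 31 of 41 lipogenic sites lie above the line and in dKO liver 16 of 29.

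Between genotypes GR counts were mostly lower in dKO liver, at these genes as over the whole lists. Under vehicle 22 of 31 matched sites were higher in control liver (71.0%, against 68.2% of all 19488 sites). The median log2 ratio of control over dKO was 0.30, against 0.19 over all. At least 1.5-fold higher were 7 (22.6%, against 22.3% of all) and at least 1.5-fold lower 1 (3.23%, against 1.64%). Under dexamethasone 38 of 43 were higher in control (88.4%, against 83.2% of all 24720 sites). The median log2 ratio of control over dKO was 0.67, against 0.42 over all. At least 1.5-fold higher were 23 (53.5%, against 36.5% of all) and at least 1.5-fold lower 1 (2.33%, against 1.46%). Gene medians of that ratio under dexamethasone were 1.15 at Acly (2 sites), 1.06 at Acaca (4 sites), 0.99 at Thrsp (3 sites), 0.75 at Elovl6 (11 sites) and 0.06 at Scd1 (4 sites). The low Scd1 median came from sites in both directions, since 2 of the 4 were higher in control liver and the others lower. These Scd1 sites ranged from 1.51-fold higher in control liver to 1.21-fold higher in dKO liver. Control vehicle peaks without a dKO counterpart were 18 of 49 (36.7%, 23.4 to 51.7), against 35.1%, and control dexamethasone ones 23 of 66 (34.8%, 23.5 to 47.6), against 39.5%. The reverse, dKO peaks with no control peak, were 4 of 35 under vehicle (11.4%, against 16.6%) and 4 of 47 under dexamethasone (8.51%, against 12.9%). These comparisons share lists with those of the drug, and the dKO lists also had fewer tags inside peaks, 3.4% and 4.1% against 5.0% and 7.23%.

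NCOR1 counts in control liver were mostly lower under dexamethasone, by about as much as over the whole lists. Of 54 matched lipogenic sites 43 were lower and 11 higher (20.4% higher, against 28.45% of all 26532 sites). The median log2 ratio was -0.37 against -0.31 over all, which leaves -0.059 relative to that shift. At least 1.5-fold lower were 19 (35.2%, against 32.0% of all) and higher 2 (3.70%, against 6.24%). Thrsp at -0.95 (2 sites) and Acly at -1.10 (3 sites) had the lowest gene medians, and Acacb at -0.16 (5 sites) the highest. The 2 sites that were higher past 1.5-fold were weak, at Me1 from 6.47 to 14.9 and beyond the end of Elovl6 from 9.0 to 18.1. Vehicle peaks with no dexamethasone counterpart were 20 of 74 (27.0%, against 32.8%), and the reverse 18 of 72 (25%, against 29.6%), a share that was 11.5% with peaks of at least 8-fold over input. The vehicle list stands for 1 library of 17.8 M tags and the dexamethasone list for 2 of 36.9 M in all.

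In dKO liver most NCOR1-antibody peaks of the lipogenic genes were not called. Of 74 control vehicle NCOR1 peaks 63 had no dKO peak (85.1%, 75 to 92.3), against 79.5% of the list. The 63 include the Scd1 peak with a dKO peak 203 bp away. With centres within 500 bp as the rule, 61 had no dKO peak (82.4%). Of the 16 dKO peaks 11 matched a control peak, and 5 did not (31.2%, against 53.1%). At the 11 matched sites 10 were higher in control liver (90.9%, against 65.2% of all 8097 sites). The median log2 ratio of control over dKO was 1.15, against 0.39 over all. At least 1.5-fold higher were 8 (72.7%, against 42.8%), and 1, the Acacb site above, was at least 1.5-fold lower (9.09%, against 16.5%). Among the sites with no dKO peak were those 1.34 kb upstream of Thrsp (91.7 in control vehicle) and 60.9 kb from Elovl6 (91.4). Near equality stood a site 2.13 kb outside Dgat2 (chr7:99151389-99151636), with 33.2 and 47.9 in control liver under vehicle and dexamethasone and 29.5 in dKO liver. Peaks of this antibody at 8 hepatocyte marker genes numbered 53 in control vehicle, on all 8, and 3 in dKO vehicle, on 3 of the 8, and those at 5 endothelial marker genes numbered 29 and 35, on all 5. Their summed counts were 1850 and 37.5 at the hepatocyte genes and 405.1 and 497.7 at the endothelial genes. Marker genes of Kupffer cells held 3 and 2 peaks, of stellate cells 0 and 4, of cholangiocytes 13 and 2, and of adipocytes 4 and 5. The whole lists held 39458 and 17282 peaks. Control vehicle peaks with no dKO peak were 51 of 53 at the hepatocyte genes (96.2%) and 19 of 29 at the endothelial genes (65.5%), against 79.5% of the list. At Kupffer cell, cholangiocyte and adipocyte genes they were 1 of 3, 11 of 13 and 4 of 4. The part of cell types in the remaining dKO signal was not tested.

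**Figure D5:**
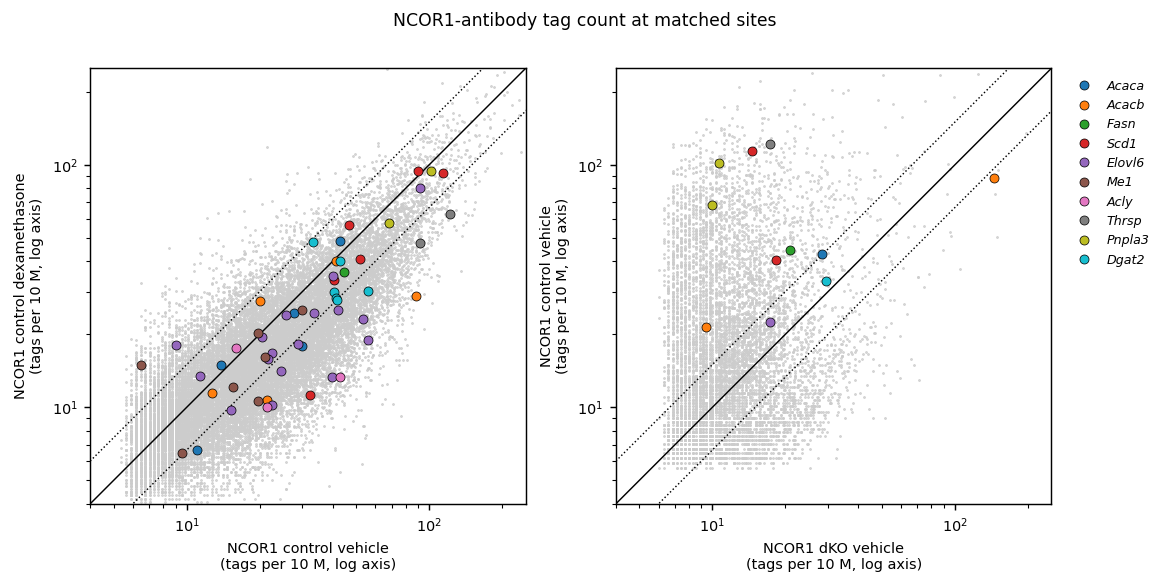
NCOR1-antibody tag count (tags per 10 M, log axes) at matched sites: control dexamethasone (y axis) against control vehicle (x axis) on the left, and control vehicle (y axis) against dKO vehicle (x axis) on the right, with lines and colours for equality, 1.5-fold and genes. On the left 43 of 54 lipogenic sites lie below the line of equality; on the right 10 of 11 lie above it, the exception being Acacb at 144.6 in dKO.

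A larger share of GR peaks carried NCOR1 at these genes than over the whole lists. In control vehicle liver 36 of 49 lipogenic GR peaks overlapped an NCOR1 peak (73.5%, 58.9 to 85.1), against 54.3% of all GR peaks, and in control dexamethasone 46 of 66 (69.7%, 57.2 to 80.4), against 48.9%. Without the NCOR1 peaks that overlapped a dKO peak these shares were 61.2% and 57.6%, against 42.2% and 38.1% of all GR peaks. Split at the list's median tag count, the vehicle shares were 27 of 33 stronger lipogenic peaks (81.8%, against 46.1% of all stronger peaks) and 9 of 16 weaker ones (56.25%, against 62.2%). For dexamethasone they were 31 of 47 (66.0%, against 56.8%) and 15 of 19 (78.9%, against 41.1%). Read from NCOR1, 36 of 74 vehicle peaks had GR (48.6%, against 41.3%) and 46 of 72 dexamethasone peaks (63.9%, against 53.0%). In dKO vehicle liver 7 of 35 GR peaks lay on an NCOR1-antibody peak (20.0%, against 17.1%). Whether these shares differ from the list beyond the spread between animals could not be tested.

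Genes around the pathway had control values like those of the 10 genes, and in dKO liver a larger share of their sites was higher under dexamethasone. At 30 other enzymes of lipid and NADPH synthesis, such as Gpam, Acsl1, Fads1 and Lpin1, 50 of 66 matched GR sites were higher under dexamethasone in control liver (median log2 ratio 0.30) and 36 of 48 in dKO liver (0.40). The highest GR count of these enzymes was at Lpin1, which encodes the phosphatidate phosphatase lipin-1. Its highest counts were 329.6 under vehicle and 347.0 under dexamethasone in control liver, and 226.6 under dexamethasone in dKO liver. At 10 regulators, among them Srebf1, Mlxipl, Nr1h3 and Insig2, 18 of 23 were higher in control liver (0.39) and 13 of 17 in dKO liver (0.36). Over all matched GR sites of the lists 53.3% were higher under dexamethasone in control liver and 45.9% in dKO liver. Srebf1, which encodes SREBP-1, had 1 GR peak in control vehicle, at 12.2, and none in control dexamethasone, and 4 NCOR1 peaks in each of the 2 control lists, up to 45.3 and 65.0. Mlxipl, which encodes ChREBP, had 5 GR peaks up to 22.4 under vehicle and 4 up to 30.0 under dexamethasone in control liver, and 9 and 6 NCOR1 peaks up to 121.2 and 105.4. In control vehicle 142 of 162 NCOR1 peaks at the other enzymes (87.7%) and 51 of 63 at the regulators (81.0%) had no dKO peak. The share was 79.5% over the whole list, close to that of the regulators.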

How the data were processed

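The 12 ChIP libraries and 1 input were deposited as 7 peak lists, 1 per group. Trim Galore 0.6.4, BWA 0.7.17, HOMER 4.11, bedtools 2.29.2 and mm10 stand in the submitters' processing notes. Peaks of 200 bp were called with HOMER findPeaks against the input, per the file headers, with a minimum of 4-fold over input and over the local 10 kb and p of at most 0.0001. The normalized tag count is a signal the authors deposited, in tags per 10 M. The fold over input and the fold over the local 10 kb are ratios deposited by the authors, per the file headers. The tag threshold was 15 for GR and, set by a false discovery rate of 0.001, 11, 16 and 12 for the NCOR1 lists of vehicle control, dexamethasone control and dKO liver, per the file headers. GR libraries had no size selection and NCOR1 libraries had it, per the labels.

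Peaks were assigned to the nearest protein-coding gene body (GRCm38.p6 RefSeq, the assembly mm10 names) and matched across lists by an overlap of at least 1 bp. In 2 lists, 1 peak inside Acaca that also lay in another gene was assigned to that gene. Shares have Clopper-Pearson and tag counts exact Poisson intervals at 95%. No test was run, because 1 pooled list stands for each group. For each gene the strongest GR and the strongest control NCOR1 site were named, and for each pair of lists up to 3 sites called in 1 list only, by tag count, and up to 3 with the largest fold either way. The members and gene lists were chosen with earlier results of these data known. With bedtools 2.31.1, 0 of 288117 overlap calls from 8 pairs of lists differed, and shares and ratios were tested on simulated data. Python 3.11.15, pandas 2.3.3, numpy 2.4.6, scipy 1.17.1 and matplotlib 3.10.9 were used. Alternatives varied the overlap rule, list length, fold over input, assignment distance, scaling and, after the data were seen, the inclusion of Elovl6 and the promoter window.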

Additional observations from a re-analysis of the deposited data

Results flagged for a closer look

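At an intragenic Me1 site (chr9:86630542-86630801) GR counts were 10.6 under vehicle and 18.6 under dexamethasone in control liver, and 13 and 8.46 in dKO liver. The log2 ratio of dexamethasone over vehicle was 0.81 in control and -0.62 in dKO liver, opposite directions that both passed 1.5-fold. It was the 1 such site among 25 lipogenic sites called in all 4 GR lists, and 12 of all 16158 such sites (0.0743%) did the same. The difference was not tested, since each group is 1 pooled list, and the counting intervals overlapped in both genotypes, at 7.07 to 15.2 and 14.1 to 24.2 in control and 9.18 to 17.5 and 5.58 to 12.3 in dKO liver. No NCOR1 peak was called at this site in any list.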

How the results depend on the processing

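A value was kept when it held its direction and moved within the binomial interval of its share or within site spread. Promoter counts were instead kept when they stayed within 1.5 times. Of 97 alternative values for 21 results, 86 were kept, 82 of them within 1.5 times of the main value. The other 4 were the dKO drug median, at 0.08 with a 100 bp overlap and 0.26 relative to all matched sites, the control over dKO vehicle GR median, at 0.18 with peaks of at least 8-fold over input, and that of NCOR1, at 0.76 relative to all matched sites. Over the 250 bases before the gene body's start, genes with a GR peak were 2 in place of 0 in each of the 4 GR lists, and those with a dKO NCOR1-antibody peak were 0 in place of 1. The control NCOR1 counts were kept but held partly other genes, with Fasn absent and Acacb present in both lists. With peaks of at least 8-fold over input, the dKO median log2 ratio of dexamethasone over vehicle turned from 0.16 to -0.11, the share of control dexamethasone GR peaks without a dKO peak was 50.0%, and the share of control dexamethasone NCOR1 peaks without a vehicle peak was 11.5%. Relative to the median of all matched sites, the control over dKO GR median was 0.105 under vehicle and 0.24 under dexamethasone, and the NCOR1 drug median was -0.059. The causes were not tested. Leaving out Elovl6, which held the most sites, moved the dexamethasone-only share in control liver from 37.9% to 31.1% and left the median at 0.30.

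No paired analysis was possible because replicates were pooled in each list, and for the same reason no replicate was left out. Depth limited which weak peaks were called, and the NCOR1 lists differ in depth and in number of libraries. Peaks were tied to genes by distance alone.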

Other observations

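The NCOR1 antibody gave peaks in dKO vehicle liver at 4 lipogenic sites that no other list held, at Acacb (8.3), Scd1 (32.9), Thrsp (15.7) and Dgat2 (13.7). The Scd1 one (chr19:44388631-44388831) adjoined a site with control NCOR1 at 90.3 and 94.1 (chr19:44388834-44389158). It was a separate site only under the overlap rule of at least 1 bp. The Thrsp one lay inside the gene, 1.69 kb from its lower-coordinate end (chr7:97414518-97414718), where no control NCOR1 or GR peak was called.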
